A study of Saccharomyces cerevisiae with 6 samples.

Results

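The genes described here code for the last steps of ergosterol synthesis in Saccharomyces cerevisiae and for proteins that serve or control the pathway. They are 5 enzyme genes (ERG6, ERG2, ERG3, ERG5 and ERG4), CYB5 for the electron carrier cytochrome b5, and UPC2 and ECM22 for a pair of transcription factors. They were chosen by function, as the probes whose annotated symbol is one of these 8 names, out of 5650 named genes on the array. The choice was made with earlier results of these data known, so counts of these genes are descriptions. All 8 were measured, each by 1 probe, and none overlaps another annotated gene. Their systematic names are YML008C (ERG6), YMR202W (ERG2), YLR056W (ERG3), YMR015C (ERG5), YGL012W (ERG4), YNL111C (CYB5), YDR213W (UPC2) and YLR228C (ECM22).

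Ergosterol is the main sterol of the yeast plasma membrane, where it sets fluidity and permeability, and the sterol content of the membrane is a known factor in how yeast withstands ethanol. In the last part of the pathway Erg6 methylates the side chain of zymosterol to give fecosterol, Erg2 moves a double bond within the sterol rings to give episterol, Erg3 adds a double bond to the rings, Erg5, a cytochrome P450, adds one to the side chain, and Erg4 reduces another side-chain double bond to give ergosterol, which keeps the one made by Erg5. Cytochrome b5 passes electrons to oxygen-using enzymes of the pathway, among them Erg3. Upc2 and Ecm22 are zinc-cluster proteins that bind sterol regulatory elements in front of ERG genes, and Upc2 is held inactive in the cytosol by bound ergosterol until sterol runs low.

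The study asked how ethanol in the medium changes gene expression. The strain was W303-1A, a haploid MATa laboratory strain with the alleles ade2-1, can1-100, his3-11, 15, leu2-3, 122, trp1-1 and ura 3-1, carried by all cultures. It was grown in YEPD, a rich glucose medium, at 30 °C, in 3 cultures with 6.5% (v/v) ethanol and 3 cultures with 0% ethanol, all started from an unstressed parent culture. How long the cells were in ethanol is not stated in the labels. RNA of each culture and a pool made from the 0% cultures were hybridised together on 1 two-colour array, with the dyes swapped on the array of culture 1 in each group.

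Values below are log2 ratios of a culture over the pool. Changes are the mean of the 6.5% cultures less that of the 0% cultures, fitted in limma with a term for dye orientation (± SE, n = 3 arrays per group), and a gene is called at a Benjamini-Hochberg adjusted p below 0.05 over all 6345 features. The number of arrays limits the precision. Equal ratios do not show equal levels, so no gene's level is set against another's, and the strain cannot be checked by marker genes. All signs take the deposited ratios as red over green, the usual order, under which the heat shock genes HSP12 and HSP26 changed by 6.92 (a lower bound, since its 6.5% arrays stood at the upper limit of the values) and 5.33. This direction is likely but not stated, and with green over red every sign would be opposite.

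The arrays differed in ways that touch all results. After the swapped ratios were turned, the array of 6.5% culture 1 correlated at r = -0.06 and -0.10 across features with those of 6.5% cultures 2 and 3, which correlated at 0.85 with each other. In the 0% group, culture 1 correlated at -0.39 and -0.45 with cultures 2 and 3, which correlated at 0.67. Across groups, 6.5% culture 1 correlated at 0.43 with 0% culture 1 and at -0.62 with 0% cultures 2 and 3. Arrays of the same dye orientation were thus positively correlated and arrays of unlike orientation negatively, whatever the group. Genes on an array are not independent replicates, so these values are descriptions. The ratios also carried a smooth trend along the probe number, and values with that trend removed are given where they bear on a call.

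Ethanol was accompanied by lower transcript levels of most of the late enzymes. ERG3, ERG6, ERG2 and ERG5 fell, by 7.08-fold, 5.97-fold, 3.81-fold and 2.95-fold. With the 6.5% arrays set against the pool alone, their log2 changes were smaller, at -2.15, -1.99, -1.74 and -1.05. For ERG3 and ERG5 all 0% cultures read above a pool made from them, and the cause was not tested. ERG4, the gene of the final step, had a change of -1.09 ± 0.33 and was not called (adjusted p = 0.0660), and CYB5, UPC2 and ECM22 were not called either. Thus 4 of the 8 genes fell and none rose, where 10.4% of all features fell and 7.69% rose. The median change of the 8 genes was -1.32, beside 0.04 over all features. In the plot of values by array, the 5 enzymes and CYB5 show no overlap between the groups in the lower direction, a pattern that 14.0% of all features share.

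**Figure D1:**
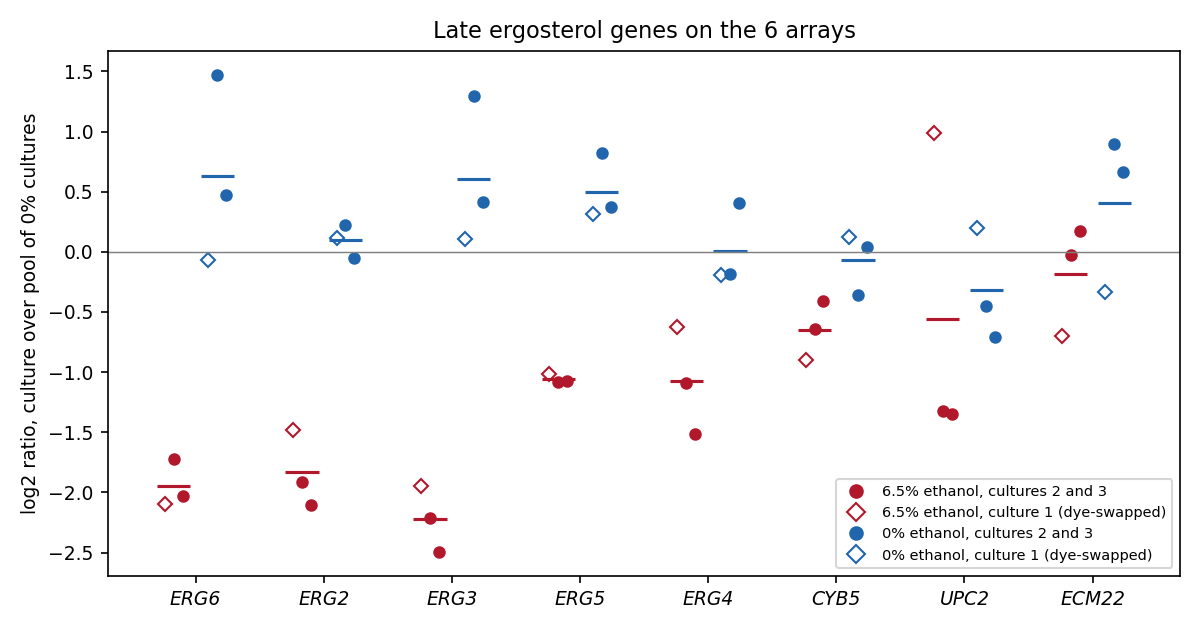
Log2 ratio of each culture over the pool for the 8 genes, with 6.5% ethanol (red) left of 0% ethanol (blue); bars are group means and open diamonds are the dye-swapped arrays of culture 1. The red points of the 5 enzymes and CYB5 all lie below the blue points, while those of UPC2 and ECM22 overlap with them.

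ERG6, the sterol methyltransferase gene, read -2.10, -1.72 and -2.03 in 6.5% cultures 1, 2 and 3, against -0.07, 1.47 and 0.47 in 0% cultures 1, 2 and 3. The 6.5% cultures lay close together and the spread was in the 0% cultures, where culture 2 read well above a pool that held its own RNA. ERG6 fell by 2.58 ± 0.36 on the log2 scale (95% interval -3.43 to -1.72, adjusted p = 0.00904). Only 0.504% of features had a lower change.

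ERG2, the sterol isomerase gene, read -1.48, -1.91 and -2.10 in the 6.5% cultures, against 0.12, 0.23 and -0.05 in the 0% cultures. As deposited its 0% cultures were the tightest among the 8 genes, with an SD of 0.14 around a mean of 0.10, and all lay near the pool. With the probe-order trend removed they read 0.26, -0.25 and -0.46. They were then not the tightest, as the 0% cultures read -0.004, 0.07 and -0.23 for UPC2. ERG2 fell by 1.93 ± 0.26 (95% interval -2.55 to -1.31, adjusted p = 0.00857).

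ERG3, the sterol desaturase gene, read -1.95, -2.21 and -2.49 in the 6.5% cultures, against 0.11, 1.30 and 0.41 in the 0% cultures. As with ERG6, 0% culture 2 was the highest. ERG3 fell by 2.82 ± 0.37 (95% interval -3.71 to -1.94, adjusted p = 0.00822), the largest fall of the 8 genes, with 0.299% of features lower.

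ERG5, the cytochrome P450 gene, read -1.02, -1.08 and -1.08 in the 6.5% cultures, against 0.31, 0.82 and 0.37 in the 0% cultures. As deposited the 6.5% cultures were nearly identical, with an SD of 0.03, and all 0% cultures lay above the pool. With the probe-order trend removed the 6.5% cultures read -0.51, -1.27 and -1.25, so culture 1 then stood apart. ERG5 fell by 1.56 ± 0.26 (95% interval -2.18 to -0.94, adjusted p = 0.0137).

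ERG4, the gene of the reductase that makes ergosterol, read -0.63, -1.09 and -1.51 in the 6.5% cultures, against -0.19, -0.19 and 0.41 in the 0% cultures. The groups did not overlap, but the swapped 6.5% culture 1 was only 0.43 below the swapped 0% culture 1, whereas the other arrays differed by -1.41. The interval of its change was -1.88 to -0.29. Without the swapped arrays ERG4 was called (-1.41, adjusted p = 0.0375), and without the probe-order trend it was near the threshold (-1.22, adjusted p = 0.0521).

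The falls of the 4 called enzymes were present in both dye orientations. Between the swapped arrays of culture 1 the 6.5% minus 0% difference was -2.03 for ERG6, -1.60 for ERG2, -2.06 for ERG3 and -1.33 for ERG5. Over the other 4 arrays it was -2.85, -2.09, -3.21 and -1.67 for the same genes. The dye term was not called for any of the 5 enzymes or CYB5, with adjusted p between 0.237 for ERG6 and 0.915 for CYB5 in limma. With the probe-order trend removed all 4 stayed called in limma, at -2.33 (ERG6), -1.63 (ERG2), -2.66 (ERG3) and -1.29 (ERG5), with adjusted p from 0.0118 to 0.0254, where 7.31% of all features fell.

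The calls depended on the arrays of 6.5% cultures 2 and 3. Without 6.5% culture 2 none of the 4 was called (adjusted p from 0.0594 to 0.0831 in limma), nor without 6.5% culture 3 (0.0546 to 0.0807), while their changes stayed between -2.80 and -1.53 in these fits. In those fits 2 and 51 of all features were called, and 1552 and 1534 had an unadjusted p below 0.05. Without the dye term ERG3 alone was called (adjusted p = 0.0449), and ERG2, ERG6 and ERG5 lay at adjusted p = 0.0512, 0.0538 and 0.0654, where 1.23% of features were called. The changes themselves kept their sign in all 16 alternative fits for each of the 8 genes, as the plot of alternative fits shows. Not all of these fits could differ. Those without the dye term, with the replicate number as a block or with a robust variance prior return the same change as the main fit by design. The fits that left out the swapped arrays, together or singly, were the same fit.

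**Figure D2:**
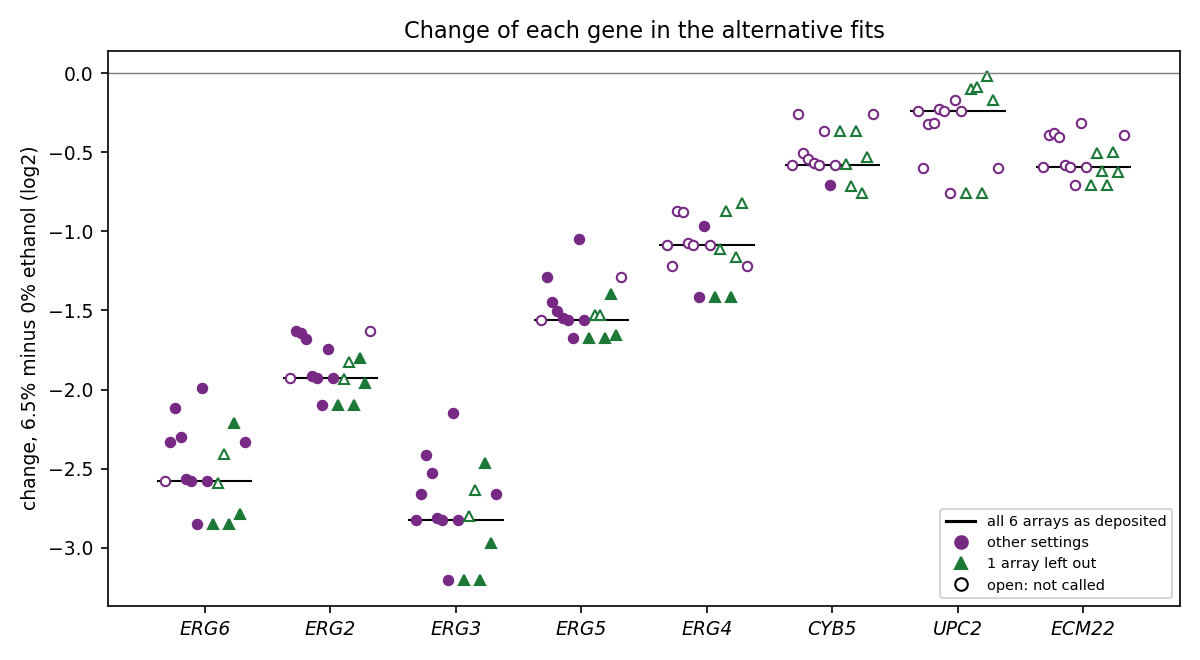
Change of each gene (6.5% minus 0% ethanol, log2) in 16 alternative fits, with a black line at the value from all 6 arrays as deposited; triangles leave out 1 array, circles are other settings, and filled symbols are called. ERG3 and ERG6 stay at -1.99 or lower in these fits, while UPC2 reaches -0.02 without 0% culture 2.

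Ordered by change, the genes ran ERG3, ERG6, ERG2, ERG5, ERG4, ECM22, CYB5 and UPC2. Neighbours in this order were not separated. For each of the 7 neighbouring pairs, the difference between the genes within an array overlapped between the 6.5% and the 0% arrays. For the enzymes with the largest and the smallest change, a pair picked from these same values, the ERG3 ratio minus the ERG4 ratio was -1.32, -1.12 and -0.98 in the 6.5% cultures, against 0.30, 1.48 and 0.01 in the 0% cultures. These values are a description, and an exact permutation test of 3 against 3 arrays cannot go below a two-sided p of 0.1.

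ERG6 and ERG3 had the most similar values of any of the 28 pairs of the 8 genes, with a mean absolute difference of 0.25 log2 units over the 6 arrays. Of all named genes, 4 were nearer to ERG6 than ERG3 was. Both genes share the high value of 0% culture 2, and a likeness over 6 arrays also holds whatever array-wide effects the genes have in common.

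CYB5 read -0.90, -0.64 and -0.41 in the 6.5% cultures, against 0.12, -0.36 and 0.04 in the 0% cultures. Its values were lower in all 6.5% cultures, by a small margin between 6.5% culture 3 and 0% culture 2. The change was -0.58 ± 0.28 (95% interval -1.25 to 0.08, adjusted p = 0.188). After removal of the probe-order trend it was -0.26 and the groups overlapped. Against the pool alone, which leaves out the spread of the 0% cultures, CYB5 was called in limma (-0.71, adjusted p = 0.0179). That fit had 1 residual degree of freedom and called 2542 of all features, beside 1150 in the main fit. A call there thus says little about CYB5 itself.

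Other redox partners of sterol synthesis were not called in the main fit. Of 4 measured, NCP1, the reductase that feeds electrons to cytochrome P450 enzymes, had a change of -1.38 ± 0.39 (adjusted p = 0.0520). The heme-binding P450 partner gene DAP1 was at -1.07, the cytochrome b5 reductase gene CBR1 at -0.76 and the mitochondrial reductase gene MCR1 at 0.44. The list's median was -0.91. Leaving out 0% culture 2 or 0% culture 3 gave 1 call each among the 4, where 485 and 754 of all features were called. Against the pool alone all 4 were called, as were 2542 of all features. NCP1 is also 1 of the genes from squalene to zymosterol counted below.

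UPC2 did not move in the same direction on all arrays. It read 0.99, -1.33 and -1.35 in the 6.5% cultures, against 0.20, -0.45 and -0.71 in the 0% cultures. As deposited the swapped arrays were the highest in both groups, and the 6.5% values spanned the 0% values. Between the swapped arrays the 6.5% minus 0% difference was 0.79, and over the other 4 it was -0.76. The dye term was called for UPC2 (-0.78, adjusted p = 0.0246). Its change was -0.24 ± 0.37 (95% interval -1.12 to 0.63, adjusted p = 0.680), an interval that leaves room for a 2.17-fold decrease. The probe-order trend stood at 0.81 on the array of 6.5% culture 1 at the position of UPC2, and with the trend removed the change was -0.60 (adjusted p = 0.248). The 0% cultures then read -0.004, 0.07 and -0.23, so the swapped array was no longer the highest in that group.

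ECM22, the paralogue of UPC2, read -0.70, -0.03 and 0.18 in the 6.5% cultures, against -0.34, 0.89 and 0.67 in the 0% cultures. Here the swapped arrays were the lowest in both groups, and within each orientation the 6.5% cultures lay below the 0% cultures. The dye term was called for ECM22 as well, with the opposite sign (0.47, adjusted p = 0.0342). The share of all features with a called dye term was not counted. The dye calls of UPC2 and ECM22 are therefore not read as particular to these genes. Its change was -0.59 ± 0.25 (95% interval from -1.19 to just under 0, adjusted p = 0.142), and -0.39 with the trend removed (adjusted p = 0.342). The UPC2 ratio minus the ECM22 ratio was 1.69, -1.30 and -1.52 in the 6.5% cultures, against 0.54, -1.34 and -1.38 in the 0% cultures. This difference followed the dye orientation in both groups, and the groups overlapped.

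Of the 11 other regulators of sterol and hypoxic genes on the list, 1 fell and none rose, a share near the 10.4% of all features that fell, and the list had a median of -0.26. SUT2, a zinc-cluster protein related to the sterol uptake regulator Sut1, fell by 1.25 ± 0.25 (adjusted p = 0.0211), but lost its call once the trend was taken out (-0.82, adjusted p = 0.0827) and with the replicate number as a block (adjusted p = 0.0524). ROX1, the repressor of hypoxic genes, was at -1.01 ± 0.40 (adjusted p = 0.126), MOT3, another repressor of these genes, at -0.41 ± 0.24 and HAP1, the heme-responsive activator, at -0.26 ± 0.28. None of these 3 passed the test in the main fit. Without the swapped arrays 2 of the 11 fell, among them ROX1 (-1.55), and 1 rose. In that fit 688 of all 6345 features fell and 565 rose. With the trend removed, after scaling, after quantile normalization or with the block, 0 of the 11 were called.

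Most genes of the steps before zymosterol fell as well. Of 20 earlier ergosterol genes 13 fell and none rose, with a median of -1.22, where 10.4% of all features fell and 7.69% rose. With the trend removed 9 fell (median -1.01), as did 9 with the replicate number as a block. Without 6.5% culture 2 none of the 20 was called, and without 6.5% culture 3 there was 1. Among the 10 genes from acetyl-CoA to squalene 7 fell, led by HMG1, which codes for the main HMG-CoA reductase, at -3.00 ± 0.32, and ERG13, HMG-CoA synthase, at -2.10 ± 0.28. The count of 7 was 3 with the trend removed, 3 with arrays scaled to equal spread, 4 after quantile normalization and 4 with the replicate block. HMG2, the second HMG-CoA reductase, did not pass the test at -0.58 ± 0.26 (adjusted p = 0.160). Among the 10 genes from squalene to zymosterol 6 fell, led by ERG1, squalene epoxidase, at -2.20 ± 0.31, and ERG11, the lanosterol demethylase, at -2.17 ± 0.28. This count was 6 with the trend removed, 3 after scaling, 4 after quantile normalization and 5 with the block. The calls over all 6345 features also dropped in these settings. As deposited 662 features fell, beside 464 with the trend removed, 202 after scaling, 318 after quantile normalization and 357 with the block. The plot along the pathway shows ERG3 and ERG6 beside HMG1 as the largest decreases of the 25 pathway genes and the 3 genes listed under them.

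**Figure D3:**
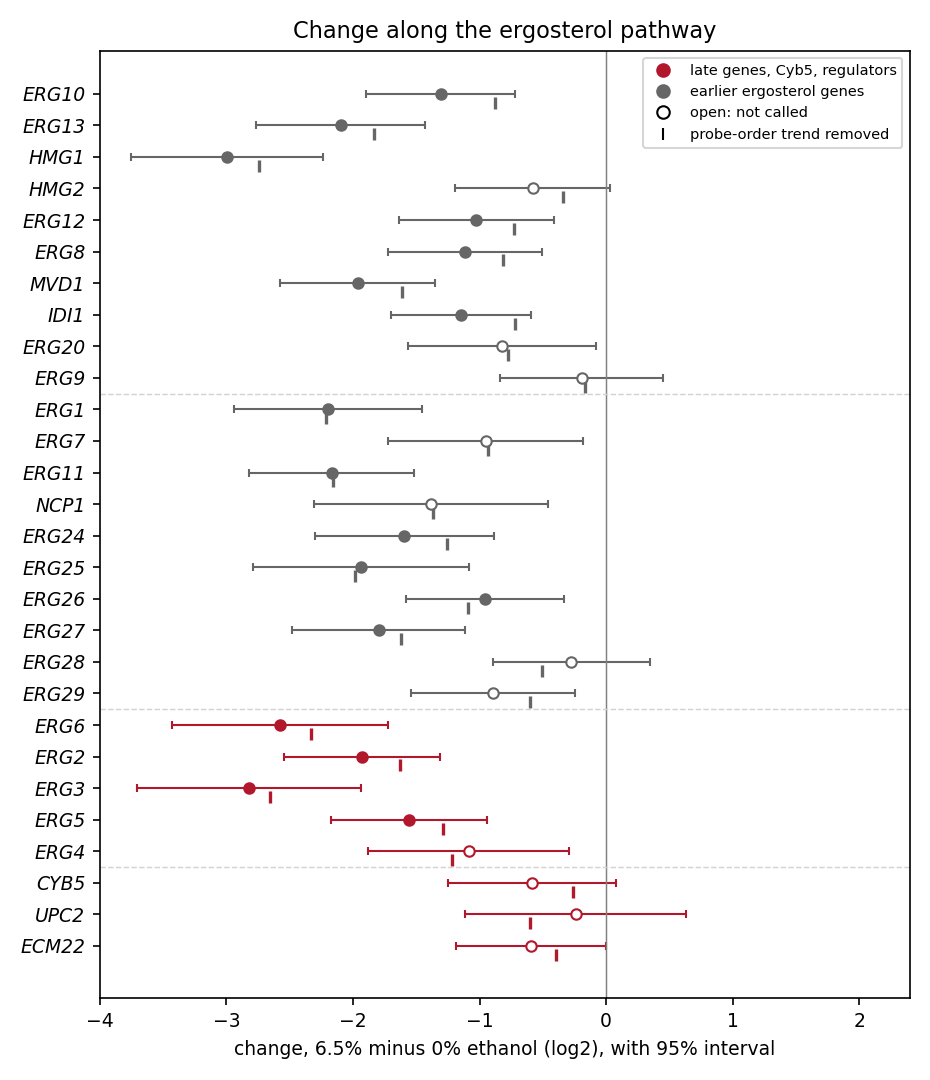
Change with 95% interval (6.5% minus 0% ethanol, log2) for the earlier ergosterol genes (grey) and the 8 genes described here (red), in pathway order from the top; open points were not called and vertical ticks give the change with the probe-order trend removed. All 28 changes are below 0, and the intervals of HMG2, ERG9, ERG28, CYB5 and UPC2 include 0.

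The trend along the probe number contributed unequally to these genes. Its part in the change was -0.24 for ERG6, -0.30 for ERG2, -0.16 for ERG3, -0.27 for ERG5, -0.32 for CYB5 and -0.20 for ECM22, and it was 0.13 for ERG4 and 0.36 for UPC2. For the 4 called enzymes these parts were small beside their changes. For CYB5, ECM22 and UPC2 it was of the same order as the change itself.

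**Figure D4:**
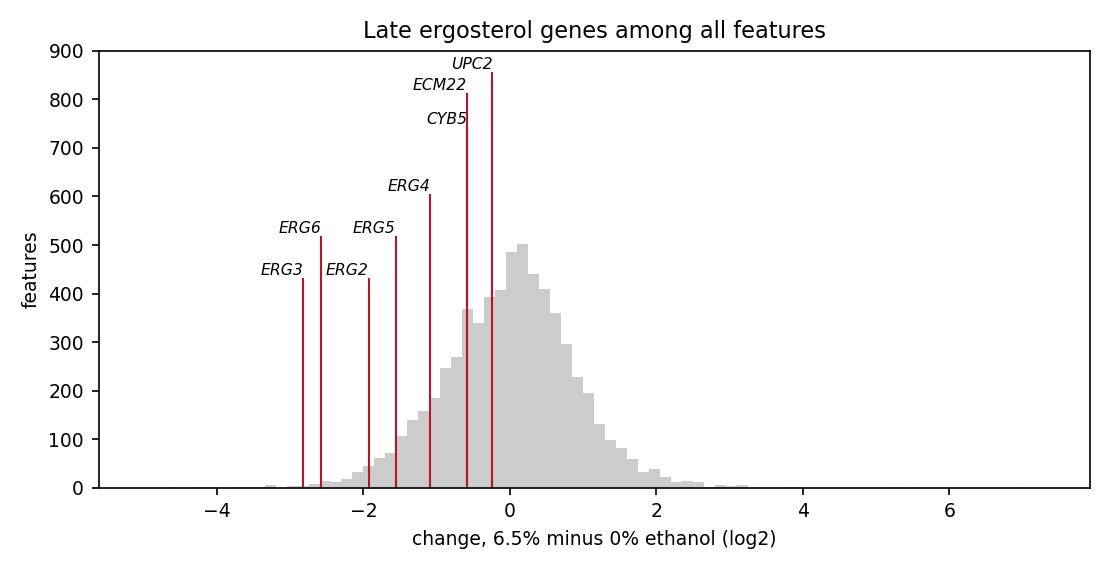
Distribution of the change (6.5% minus 0% ethanol, log2) over all 6345 features, with red lines at the 8 genes, whose heights only separate the labels. ERG3 and ERG6 lie in the far lower tail, ERG2 and ERG5 at its edge with 2.05% and 4.37% of features lower, and UPC2, CYB5 and ECM22 within the bulk.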

How the data were processed

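The authors deposited 1 table of log2 ratios for 6368 probes on 6 arrays; per the labels, channel 1 was AlexaFluor 647 (red) and channel 2 AlexaFluor 555. Background correction, normalization and ratio direction are not stated in the labels. The scale was read as log2 from the limit of 6.64 on both sides. Swapped arrays were multiplied by -1. Symbols came from the platform annotation, updated through RefSeq (assembly R64): 5673 probes had 1 gene, 695 none and 0 several. Probes of 1 gene were averaged (6345 features). No signal intensity was used, so signal over background is unknown.

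The fit used limma 3.58.1 in R 4.3.3 (lmFit, eBayes, 3 residual degrees of freedom), two-sided. It was also run on data simulated from the same model with independent errors. That run cannot show how the fit behaves under errors shared across an array. The 3 cultures of a group were separate cultures. The trend was removed with lowess (span 0.3) along the probe number. Deviations from the group means correlated at 0.70, 0.48 and 0.43 between same-numbered cultures, and culture 2 minus culture 3 at r = -0.04 between groups. Cultures with unlike numbers in the same dye orientation correlated about as much. The values were 0.51 for 6.5% culture 3 with 0% culture 2, and 0.42 for 6.5% culture 2 with 0% culture 3. For number 1 the dye swap and any shared day or batch cannot be told apart. With the number as a block 607 features were called, and the same 4 of the 8 genes.

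Named genes were all 8 members, the 2 largest called changes of each list, and HMG1, HMG2, ERG11, OLE1, HAP1, ROX1 and MOT3; other redox partners were named after their values were seen. Also named were the 2 genes nearest in pattern to each called enzyme. Of 72 list genes 71 were measured. Members and lists were chosen with earlier results of these data known. No sequence was used here.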

Additional observations from a re-analysis of the deposited data

How the results depend on the processing

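The number of the 8 genes called, 4 with all arrays as deposited, was 1 without the dye term, 2 with the trend removed and no dye term (an alternative chosen after seeing the data), 6 against the pool alone, and 0 to 5 with 1 array left out. It was 0 without 6.5% culture 2 or 3. Of the 20 earlier ergosterol genes, 13 were called as deposited, 6 with arrays scaled to equal spread, 2 without the dye term, 8 after quantile normalization, 6 with the trend removed and no dye term, 9 with the replicate block, 16 against the pool alone, and 0 to 11 with 1 array left out. Over all features 1150 were called, 301 after scaling, 78 without the dye term, 484 after quantile normalization, 607 with the replicate block, 2542 against the pool alone, 171 with the trend removed and no dye term, and 2 to 1253 with 1 array left out (2 and 51 without 6.5% culture 2 and 3, 485 and 754 without 0% culture 2 and 3). Removing the trend alone gave 839. Leaving out either swapped array gives the same fit as leaving out both, since the dye term then absorbs the remaining one. The replicate block changed no call among the 8 genes. ERG5 was at -1.05 against the pool alone, beside -1.56, still called (adjusted p = 0.00585). The cause of these differences was not tested. No change of the 8 genes reversed, although the fits that altered only the dye term, the block or the variance prior could not reverse one. With 3 arrays per group and no intensities, small changes such as those of CYB5 and ECM22 cannot be told from 0.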

Other observations

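Among genes that store, move or take up sterols the calls were no more than the background, in which 10.4% of all features fell and 7.69% rose. Of 7 genes of sterol esters and sterol acetates none was called by limma, with a median change of -0.15 and a range of -0.67 to 0.40. Without culture 1 of either group this median was 0.13, and without 0% culture 2 it was -0.36. Of 20 genes of sterol uptake and transport 1 fell and 1 rose, with a median of -0.04, which was 0.25 without culture 1 of either group and 0.16 with the probe-order trend removed. KES1, an oxysterol-binding protein homologue, had a change of -1.62 ± 0.39 (adjusted p = 0.0327), but its groups overlapped and it lost its call once the trend was taken out (-1.19, adjusted p = 0.0831) and with the replicate number as a block (adjusted p = 0.0621). LAM5, a protein of the sterol transfer family, rose by 1.29 ± 0.26 (adjusted p = 0.0221), and by 1.43 with the trend removed (adjusted p = 0.0203), but its call held in only 3 of the 6 fits without 1 array and was lost with the replicate block (adjusted p = 0.0532). Of 7 hypoxic cell wall genes of the DAN and TIR families none was called, with a median of 0.36. This median was -0.46, with 1 gene higher, without culture 1 of either group, and 0.74 without 6.5% culture 3.

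Among 6 oxygen-using lipid enzymes other than ERG3 and ERG5, 4 fell, where 10.4% of all features fell. Of these 4, all but OLE1 were already counted among the genes from squalene to zymosterol. OLE1, the fatty acid desaturase, changed by -3.58 ± 0.30 and ERG1 by -2.20 ± 0.31, whereas SUR2 and SCS7, hydroxylases of sphingolipid synthesis, were at -0.55 and -0.38 and were not called. These 2 were named after their values were seen. Without 6.5% culture 2 none of the 6 was called, and without 6.5% culture 3 there was 1.

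Outside the ergosterol lists, the named genes with values nearest to ERG6 over the 6 arrays were REA1 and FSF1, with mean absolute differences of 0.18 and 0.19 log2 units. Nearest to ERG2 were CIS3 (0.10) and VRG4 (0.11), to ERG3 REA1 (0.26) and ASC1 (0.28), and to ERG5 FRS1 (0.11) and KEI1 (0.11).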
